A study of Mus musculus with 20 samples.

Results

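The megakaryocyte and platelet genes described here are 9 genes: Pf4, Ppbp, Vwf, Gp1ba, Gp5, Gp6, Gp9, Itga2b and Itgb3. A gene was represented by the probe set whose gene symbol in the platform annotation is exactly that gene. Of the 9 genes, 8 had such a probe set, 1 each, out of 22180 genes in the series, and all 8 passed the filter that kept 16638 genes for testing. No probe set carried the symbol Gp1ba alone, so it has no value here. The study measured gene expression on single-colour arrays in 3 populations of sorted mouse bone marrow cells from 2 genotypes, 20 arrays in all. The groups were CreER-Raptor common myeloid progenitors (CMP, 3 arrays) against WT CMPs (3), CreER-Raptor granulocyte-macrophage progenitors (GMP, 3) against WT GMPs (3), and CreER-Raptor lineage-negative cells (Lin- + MCSF, 4) against WT Lin- + MCSF cells (4). CreER-Raptor is the labels' short name for mice with CreER and 2 floxed alleles of Rptor, the gene of the mTOR complex subunit raptor. All mice were females on a C57BL/6 background, and their age is not stated. CMPs and GMPs were lysed fresh from the sort, whereas the Lin- cells were first kept for 12 h in culture with 10 ng/ml of M-CSF, the growth factor of the monocyte lineage. The labels do not give the promoter of CreER, the induction of Cre, the alleles carried by WT mice or whether replicates came from separate animals. The p-values therefore measure the spread between these arrays, which may be technical.

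Megakaryocytes are the large polyploid marrow cells that shed platelets, and they arise from stem cells either directly or through progenitors that also give red cells. Platelets stick to damaged vessel wall through von Willebrand factor and collagen receptors, then bind fibrinogen and release stored proteins. Several of these genes are switched on in early progenitors that are far from a mature megakaryocyte, and the CMP gate is known to hold megakaryocyte- and erythroid-primed cells, which the GMP gate largely lacks. Pf4 and Ppbp encode CXC chemokines of the platelet alpha granule and are neighbouring genes in RefSeq (GRCm38.p6). Vwf encodes von Willebrand factor, the adhesive protein that bridges collagen and platelets. Gp1ba, Gp5 and Gp9 encode subunits of its receptor, the glycoprotein Ib-IX-V complex. Gp6 encodes a collagen receptor that signals through the Fc receptor gamma chain. Itga2b and Itgb3 encode the 2 chains of the platelet fibrinogen receptor, of which the beta chain also pairs with the alpha V integrin chain.

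Values are log2 signals after RMA, and 1 log2 unit is a 2-fold change. Each gene's level can be compared between groups but not with the level of another gene, since probe sets bind with different strength. Arrays of a group correlated at 0.978 or above over all probe sets. The stem and progenitor receptor gene Kit averaged 8.94 to 11.14 and the granule enzyme gene Mpo 12.10 to 12.85 over the 6 groups, so transcripts of myeloid progenitors were present in all of them. Some marker levels differed between genotypes. The progenitor marker gene Cd34 averaged 9.57 in CreER-Raptor CMPs against 10.65 in WT CMPs, and 8.89 against 10.26 in GMPs. The monocyte marker gene Csf1r averaged 7.33 against 8.84 in CMPs and 7.28 against 9.48 in GMPs. Kit was higher in CreER-Raptor cells, at 11.14 against 10.73 in CMPs and 11.05 against 10.76 in GMPs. Rptor was lower in CreER-Raptor cells by 0.29 ± 0.13 (SE) log2 units in CMPs, 0.17 ± 0.13 in GMPs and 0.18 ± 0.11 in Lin- + MCSF cells, and none of these differences passed the test (adjusted p = 0.163, 0.465 and 0.305, limma). Whether its probe set reads the floxed exons is unknown here, so this does not check the genotype labels. In these bulk samples, fewer cells of a type and less RNA per cell cannot be told apart.

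Pf4, Vwf, Gp5 and Itga2b were the members called in both the comparison of WT GMPs with WT CMPs and the genotype comparison in Lin- + MCSF cells. RefSeq (GRCm38.p6) gave a promoter for 3 of them, and for 7 of the 9 genes in all. The 250 bases before the start are shown for these 3, with capitals for matches to motifs of 2 factor families known from megakaryocyte genes. The windows lie at chr5:90772185-90772434 (plus strand) for Pf4, chr16:30310782-30311031 (minus strand) for Gp5 and chr11:102469884-102470133 (minus strand) for Itga2b.
Pf4: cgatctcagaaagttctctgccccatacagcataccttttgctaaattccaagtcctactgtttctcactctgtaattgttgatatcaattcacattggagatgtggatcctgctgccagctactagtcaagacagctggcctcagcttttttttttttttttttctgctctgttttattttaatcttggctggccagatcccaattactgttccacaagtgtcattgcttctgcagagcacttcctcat
Gp5: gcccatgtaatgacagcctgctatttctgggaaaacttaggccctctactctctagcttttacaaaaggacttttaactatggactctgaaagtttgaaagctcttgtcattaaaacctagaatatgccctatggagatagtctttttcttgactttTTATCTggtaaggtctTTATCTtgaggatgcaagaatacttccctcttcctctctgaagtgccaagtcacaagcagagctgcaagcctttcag
Itga2b: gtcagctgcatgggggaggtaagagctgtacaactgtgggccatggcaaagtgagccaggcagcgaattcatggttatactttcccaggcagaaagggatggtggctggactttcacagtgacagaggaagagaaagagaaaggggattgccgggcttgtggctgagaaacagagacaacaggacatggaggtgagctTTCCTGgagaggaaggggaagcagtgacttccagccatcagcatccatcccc
The motifs searched on both strands were AGATAA or TGATAA for GATA factors and CAGGAA or CCGGAA for ETS factors, and no matches overlapped in these windows. The Gp5 window held 2 GATA matches, both on the opposite strand, at 72 to 77 and 88 to 93 bases before the start. The Itga2b window held 1 ETS match on the opposite strand, at 47 to 52 bases before the start, and the Pf4 window held no match to either motif. Of all 32851 promoter windows of this length, 16.6% held a GATA match and 35.1% an ETS match. Over the 7 genes with a window, 3 held a GATA match and 3 an ETS match. A match is a string of letters and not evidence of binding. No other letters were searched, so a window without a match is not evidence of no binding.

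In CMPs, Gp5 was the only member called between the genotypes: its signal was 2.04-fold higher in CreER-Raptor cells. A gene is called at a Benjamini-Hochberg adjusted p under 0.05 over all tested genes, and 11.4% of those genes were called in this comparison. At 1 of 8 members, the count was near that share and says little about the members as a set. The log2 signal of Gp5 was 6.36, 6.68 and 6.40 in CreER-Raptor CMPs, against 5.49, 5.33 and 5.53 in WT CMPs. All 3 CreER-Raptor arrays lay above all 3 WT arrays, and the difference was 1.03 ± 0.18 (SE; adjusted p = 0.000309). It stayed between 0.93 and 1.09 when any 1 array of these groups was left out.

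Pf4 pointed the other way in CMPs. It read 7.60, 7.93 and 8.24 in CreER-Raptor CMPs, against 8.48, 8.50 and 8.74 in WT CMPs, so the arrays did not overlap, but the difference of -0.65 ± 0.22 missed the threshold (adjusted p = 0.0624). It passed without CreER-Raptor CMP replicate 3, at -0.81 (adjusted p = 0.0335), and when the CMP arrays were fitted alone (adjusted p = 0.0236). Ppbp, the neighbouring chemokine gene, read 4.94, 4.46 and 4.84 in CreER-Raptor CMPs, against 4.65, 4.58 and 6.62 in WT CMPs. One WT array stood about 2 log2 units above the other two, and the difference of -0.54 ± 0.36 (adjusted p = 0.461) became 0.13 ± 0.25 without that array, WT CMP replicate 3. Vwf, at 6.11, 5.93 and 6.34 in CreER-Raptor CMPs, against 6.20, 6.10 and 6.41 in WT CMPs, overlapped between the genotypes (-0.11 ± 0.15, adjusted p = 0.78).

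None of the other adhesion genes was called in CMPs. Itga2b read 8.02, 8.01 and 8.40 in CreER-Raptor CMPs, against 7.75, 7.73 and 7.84 in WT CMPs, a difference of 0.37 ± 0.15 (adjusted p = 0.144). Itgb3 read 7.35, 7.15 and 7.32 in CreER-Raptor CMPs, against 7.00, 6.87 and 7.01 in WT CMPs, a difference of 0.32 ± 0.15 (adjusted p = 0.244). Both integrin chains were thus higher on every CreER-Raptor array, without passing the test. Gp9, a subunit of the von Willebrand factor receptor, read 6.96, 7.04 and 6.51 in CreER-Raptor CMPs, against 7.09, 7.15 and 7.19 in WT CMPs (-0.31 ± 0.17, adjusted p = 0.336). Gp6 read 4.27, 4.18 and 4.38 in CreER-Raptor CMPs, against 4.42, 4.41 and 4.54 in WT CMPs (-0.18 ± 0.15, adjusted p = 0.596). In all, 6 of the 8 members had arrays that did not overlap between the genotypes, 3 higher and 3 lower in CreER-Raptor CMPs, where 30.8% of all tested genes did not overlap. The median difference of the members was -0.14, against -0.01 over all tested genes.

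**Figure D1:**
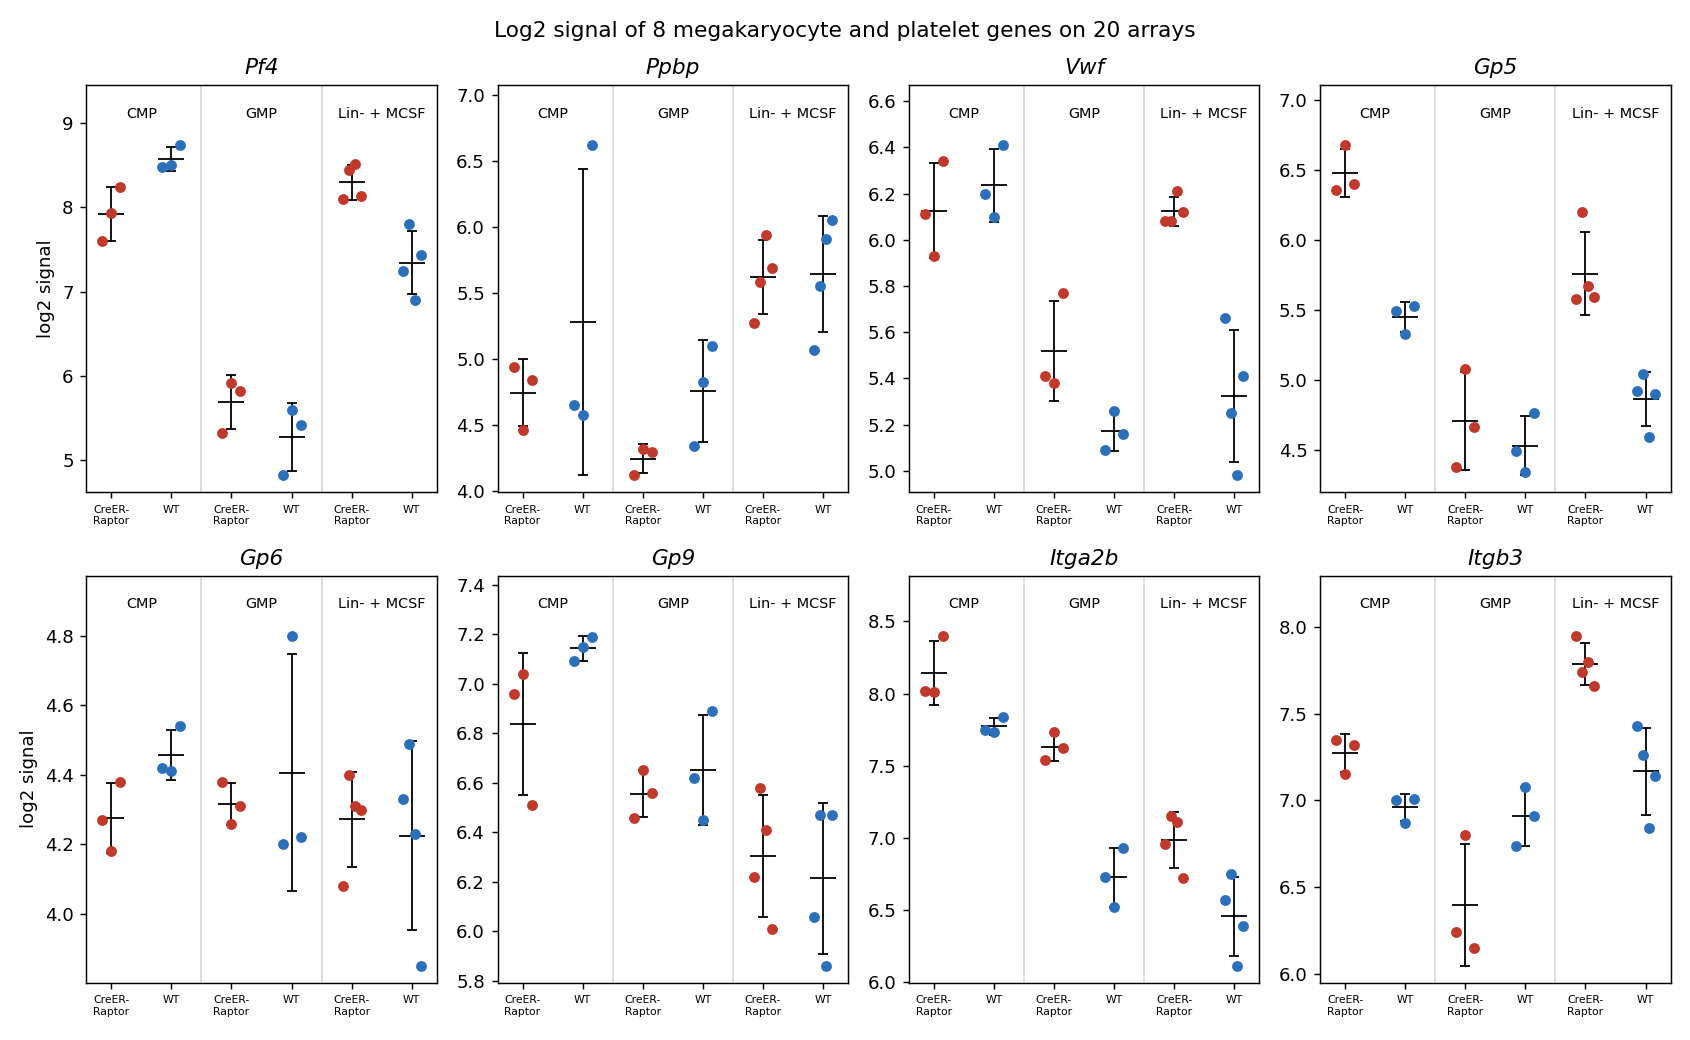
Log2 signal (vertical axis, own range in each panel) of the 8 genes on every array, by population and genotype; points are arrays, the long bar is the group mean and the whiskers are 1 SD. The red CreER-Raptor points of Gp5 lie above the blue WT points in CMPs and in Lin- + MCSF cells, and Pf4 is lowest in GMPs of both genotypes, at means of 5.69 and 5.28.

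In GMPs, Itga2b was 1.87-fold higher in CreER-Raptor cells, and 2 of the 8 members were called, where 11.9% of all tested genes were. The log2 signal of Itga2b was 7.54, 7.73 and 7.62 in CreER-Raptor GMPs, against 6.73, 6.52 and 6.93 in WT GMPs. The groups lay clearly apart, with a difference of 0.90 ± 0.15 (adjusted p = 0.000314) that ranged from 0.80 to 1.00 when 1 array was left out. Its partner chain was called in the opposite direction. Itgb3 read 6.24, 6.80 and 6.15 in CreER-Raptor GMPs, against 6.74, 7.08 and 6.91 in WT GMPs. One CreER-Raptor array lay within the WT range, and the difference of -0.51 ± 0.15 (adjusted p = 0.0336) was not called without CreER-Raptor GMP replicate 1 (-0.43, adjusted p = 0.149), CreER-Raptor GMP replicate 3 (-0.39, adjusted p = 0.142), WT GMP replicate 2 (-0.43, adjusted p = 0.164) or WT GMP replicate 3 (-0.51, adjusted p = 0.0791).

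None of the other 6 members was called between GMP genotypes. Vwf read 5.41, 5.38 and 5.77 in CreER-Raptor GMPs, against 5.09, 5.26 and 5.16 in WT GMPs, without overlap (0.35 ± 0.15, adjusted p = 0.141). Pf4 read 5.32, 5.92 and 5.82 in CreER-Raptor GMPs, against 4.82, 5.59 and 5.42 in WT GMPs, with overlap (0.41 ± 0.22, adjusted p = 0.279). Pf4 had its lowest levels of the series in these cells. Gp5, which separated the CMP genotypes, read 4.38, 5.08 and 4.66 in CreER-Raptor GMPs, against 4.49, 4.34 and 4.76 in WT GMPs (0.18 ± 0.18, adjusted p = 0.627). Ppbp read 4.12, 4.32 and 4.30 in CreER-Raptor GMPs, against 4.34, 4.83 and 5.10 in WT GMPs (-0.51 ± 0.36, adjusted p = 0.453). The group means of Gp5 and Ppbp lay below the median of all probe sets in both GMP groups, so both genes were dim there. The collagen receptor gene Gp6 and the receptor subunit gene Gp9 showed the smallest differences. Gp9 read 6.46, 6.65 and 6.56 in CreER-Raptor GMPs, against 6.62, 6.45 and 6.89 in WT GMPs (-0.10 ± 0.17, adjusted p = 0.808). Gp6 read 4.38, 4.26 and 4.31 in CreER-Raptor GMPs, against 4.20, 4.80 and 4.22 in WT GMPs (-0.09 ± 0.15, adjusted p = 0.806). Arrays did not overlap for Itga2b and Vwf, which were higher in CreER-Raptor GMPs, nor for Ppbp, which was lower. Over all tested genes 32.4% did not overlap, a share near that of the members, so this count says little about them. The members' median difference was 0.04, against 0.02 over all tested genes.

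In Lin- + MCSF cells, 5 of the 8 members were called, all higher in CreER-Raptor cells: Pf4, Vwf, Gp5, Itgb3 and Itga2b, by 1.44- to 1.93-fold. Over all tested genes, 12.5% were called in this comparison, and 6.82% were called higher. The members' median difference was 0.57, against 0.01 over all tested genes. Pf4 read 8.10, 8.44, 8.51 and 8.14 in CreER-Raptor Lin- + MCSF cells, against 7.24, 7.80, 6.90 and 7.44 in WT Lin- + MCSF cells. Every CreER-Raptor array lay above every WT array, with a difference of 0.95 ± 0.19 (adjusted p = 0.00194). Vwf read 6.08, 6.08, 6.21 and 6.12 in CreER-Raptor Lin- + MCSF cells, against 5.66, 5.25, 4.98 and 5.41 in WT Lin- + MCSF cells. The CreER-Raptor arrays were close together (SD 0.06) and the WT arrays spread more (SD 0.29), without overlap (0.80 ± 0.13, adjusted p = 0.000233).

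Gp5, the subunit gene called in CMPs, was also higher in Lin- + MCSF cells. It read 5.58, 6.20, 5.67 and 5.59 in CreER-Raptor Lin- + MCSF cells, against 4.92, 5.04, 4.59 and 4.90 in WT Lin- + MCSF cells, a difference of 0.90 ± 0.15 (adjusted p = 0.000425). The groups did not overlap, and without CreER-Raptor replicate 2, the highest array, the difference was 0.75 (adjusted p = 0.00192). Both integrin chains were called here in the same direction. Itgb3 read 7.95, 7.74, 7.80 and 7.66 in CreER-Raptor Lin- + MCSF cells, against 7.43, 7.26, 6.84 and 7.14 in WT Lin- + MCSF cells, without overlap (0.62 ± 0.13, adjusted p = 0.00377). Itga2b read 6.96, 7.15, 7.11 and 6.72 in CreER-Raptor Lin- + MCSF cells, against 6.57, 6.75, 6.11 and 6.39 in WT Lin- + MCSF cells. One CreER-Raptor array lay just below the highest WT array, and the difference of 0.53 ± 0.13 (adjusted p = 0.0106) was not called when the Lin- + MCSF arrays were fitted alone (adjusted p = 0.0658). In the two-sided exact permutation test of 4 arrays against 4, Pf4, Vwf, Gp5 and Itgb3 each had p = 0.0286, the smallest that this design can give, and Itga2b had p = 0.0571. Those 4 were the members whose arrays did not overlap, which fixes p at this smallest value, so the test adds nothing to the non-overlap. These p-values were not adjusted for the number of members. Over all tested genes, 13.9% did not overlap in this comparison. The CMP and GMP designs of 3 against 3 cannot go below 0.1 in that test.

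The remaining 3 members did not separate the genotypes in Lin- + MCSF cells. Ppbp read 5.27, 5.58, 5.94 and 5.69 in CreER-Raptor Lin- + MCSF cells, against 5.07, 5.55, 5.91 and 6.05 in WT Lin- + MCSF cells, a difference of -0.03 with a 95% interval of -0.68 to 0.63. Gp6 ranged from 4.08 to 4.40 in CreER-Raptor Lin- + MCSF cells and from 3.85 to 4.49 in WT Lin- + MCSF cells (0.05, interval -0.22 to 0.32). Gp9 ranged from 6.01 to 6.58 in CreER-Raptor Lin- + MCSF cells and from 5.86 to 6.47 in WT Lin- + MCSF cells (0.09, interval -0.22 to 0.40). The arrays of all 3 genes overlapped, and differences of the sizes seen for Pf4 and Gp5 lie outside these intervals.

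**Figure D2:**
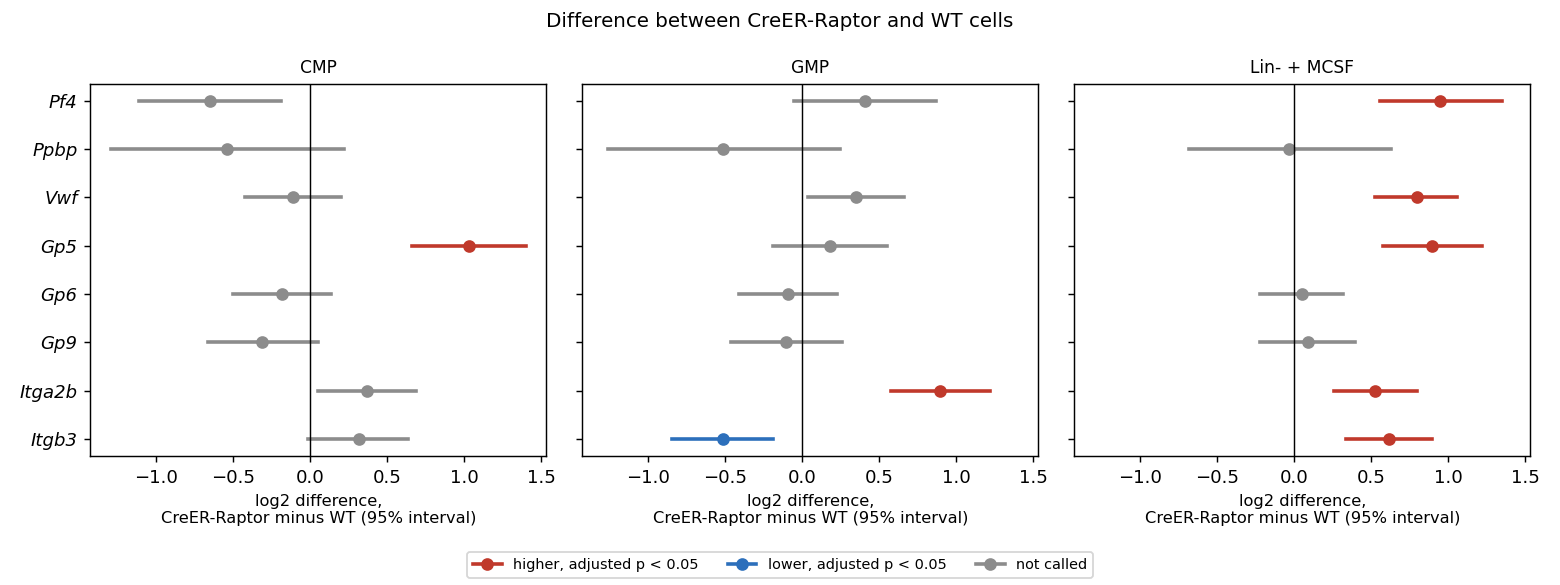
Difference in log2 signal, CreER-Raptor minus WT (horizontal axis), for 8 genes in CMPs, GMPs and Lin- + MCSF cells; points are limma estimates and lines their 95% intervals, red or blue where called. Gp5 alone is called in CMPs (1.03), Itga2b (0.90) and Itgb3 (-0.51) in GMPs, and 5 genes, all higher in CreER-Raptor cells, in Lin- + MCSF cells.

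The genotype differences themselves differed between populations for Pf4, Vwf and Itgb3, tested as interactions in the same fit. Where Lin- + MCSF cells take part, culture with M-CSF and population cannot be told apart. For Pf4 the difference in Lin- + MCSF cells exceeded that in CMPs by 1.60 ± 0.29 (adjusted p = 0.00104), with the genotypes in opposite order in the 2 populations. For Vwf it exceeded that in CMPs by 0.91 ± 0.20 (adjusted p = 0.00455). These 2 members were called where 7.77% of all tested genes were. For Itgb3 the genotype difference in Lin- + MCSF cells exceeded that in GMPs by 1.13 ± 0.20 (adjusted p = 0.00188), the only member called where 4.77% of all tested genes were. Itgb3 was also the only member called between GMPs and CMPs, with the GMP difference 0.83 ± 0.22 below the CMP one (adjusted p = 0.0467), where 2.5% of all tested genes were called. That call was lost when any 1 of 11 of the 12 arrays was left out, all but CreER-Raptor GMP replicate 2, with adjusted p up to 0.14, and with the replicate number as a block (adjusted p = 0.0577). For Gp5, the smaller genotype difference in GMPs than in CMPs (-0.85 ± 0.25) missed the threshold (adjusted p = 0.0769), and so did the larger one in Lin- + MCSF cells than in GMPs (0.72 ± 0.23, adjusted p = 0.09). The 3 interactions share arrays with each other and with the genotype comparisons.

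Across the 6 groups, each member had its own order of levels. Pf4 was highest in WT CMPs (8.57 ± 0.14, SD, n = 3), followed by CreER-Raptor Lin- + MCSF cells (8.30 ± 0.21, n = 4) and CreER-Raptor CMPs (7.93 ± 0.32, n = 3), and neighbours in this order were not called apart (adjusted p = 0.264 and 0.132). WT Lin- + MCSF cells came next (7.35 ± 0.37, n = 4), and both GMP groups were last, 1.66 or more below. Vwf averaged 6.23 ± 0.16 in WT CMPs, 6.12 ± 0.21 in CreER-Raptor CMPs and 6.12 ± 0.06 in CreER-Raptor Lin- + MCSF cells, 3 groups that were not separated. A step of 0.60 (adjusted p = 0.000798) then led down to CreER-Raptor GMPs (5.52 ± 0.22), WT Lin- + MCSF cells (5.33 ± 0.29) and WT GMPs (5.17 ± 0.09). WT Lin- + MCSF cells therefore lay in the low set of Vwf levels and CreER-Raptor Lin- + MCSF cells in the high set.

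Gp5 was highest in CreER-Raptor CMPs (6.48 ± 0.18), called above CreER-Raptor Lin- + MCSF cells (5.76 ± 0.30) by 0.72 (adjusted p = 0.000823). WT CMPs (5.45 ± 0.10) were not called below these, and WT Lin- + MCSF cells (4.86 ± 0.19), CreER-Raptor GMPs (4.71 ± 0.35) and WT GMPs (4.53 ± 0.21) were lowest. Itga2b, known as an early marker of the lineage, was highest in CreER-Raptor CMPs (8.14 ± 0.22), WT CMPs (7.77 ± 0.06) and CreER-Raptor GMPs (7.63 ± 0.10). It was lower in CreER-Raptor Lin- + MCSF cells (6.99 ± 0.19), WT GMPs (6.73 ± 0.21) and WT Lin- + MCSF cells (6.46 ± 0.27), with a called step of 0.64 between the 2 sets (adjusted p = 0.000546). For Itga2b, CreER-Raptor GMPs were not called apart from WT CMPs (adjusted p = 0.566), but they were called below CreER-Raptor CMPs (adjusted p = 0.014). Itgb3 had another order: it was highest in CreER-Raptor Lin- + MCSF cells (7.79 ± 0.12) and lowest in CreER-Raptor GMPs (6.40 ± 0.35), with the other 4 groups between 6.91 and 7.27. Gp9 averaged 7.14 ± 0.05 in WT CMPs and 6.21 ± 0.31 in WT Lin- + MCSF cells at its ends, with no called step between neighbours. Ppbp averaged 4.25 to 5.65 and Gp6 4.22 to 4.46 over the groups, with no called step either. The group means of Gp6 lay below the median of all probe sets in all 6 groups, and that of Ppbp in CreER-Raptor CMPs as well as in GMPs.

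Between the progenitor populations, Pf4 showed the largest difference of the members: its signal was 9.83-fold lower in WT GMPs than in WT CMPs. In WT cells 4 of 8 members were called lower in GMPs, where 11% of all tested genes were called in either direction and 4.35% lower. The differences were -3.30 ± 0.22 for Pf4 (adjusted p = 3.33e-09), -1.06 ± 0.15 for Vwf (6.12e-05), -1.05 ± 0.15 for Itga2b (0.000107) and -0.92 ± 0.18 for Gp5 (0.00176). For each of these 4 genes all 3 GMP arrays lay below all 3 CMP arrays, and the Gp5 mean in GMPs was under the median of all probe sets. Gp9 was apart too but not called (-0.49 ± 0.17, adjusted p = 0.0756), and Gp6, Ppbp and Itgb3 overlapped (-0.05, -0.53 and -0.05). In all, 5 members had GMP arrays that did not overlap the CMP arrays, each lower in GMPs. Over all tested genes, 35.2% did not overlap, in either direction. The members' median was -0.72, against 0.00 over all tested genes. Ppbp depended on the single high WT CMP array: without it the difference was 0.14 (adjusted p = 0.842).

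In CreER-Raptor cells 5 of 8 members were called lower in GMPs than in CMPs, where 27.9% of all tested genes were called and 15.4% lower. These were Pf4 (-2.24 ± 0.22, adjusted p = 1.44e-07), Gp5 (-1.77 ± 0.18, 1.84e-07), Itgb3 (-0.88 ± 0.15, 0.000194), Vwf (-0.60 ± 0.15, 0.00384) and Itga2b (-0.51 ± 0.15, 0.014). Itga2b was not called without CreER-Raptor CMP replicate 3 (-0.39, adjusted p = 0.0919) or CreER-Raptor GMP replicate 1 (-0.47, adjusted p = 0.0608). The Itgb3 difference was close to 0 in WT cells and called in CreER-Raptor cells, which is the interaction given above. For Pf4, Vwf, Gp5 and Itga2b the test of the difference between the genotypes was not passed (adjusted p = 0.0771, 0.335, 0.0769 and 0.262).

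**Figure D3:**
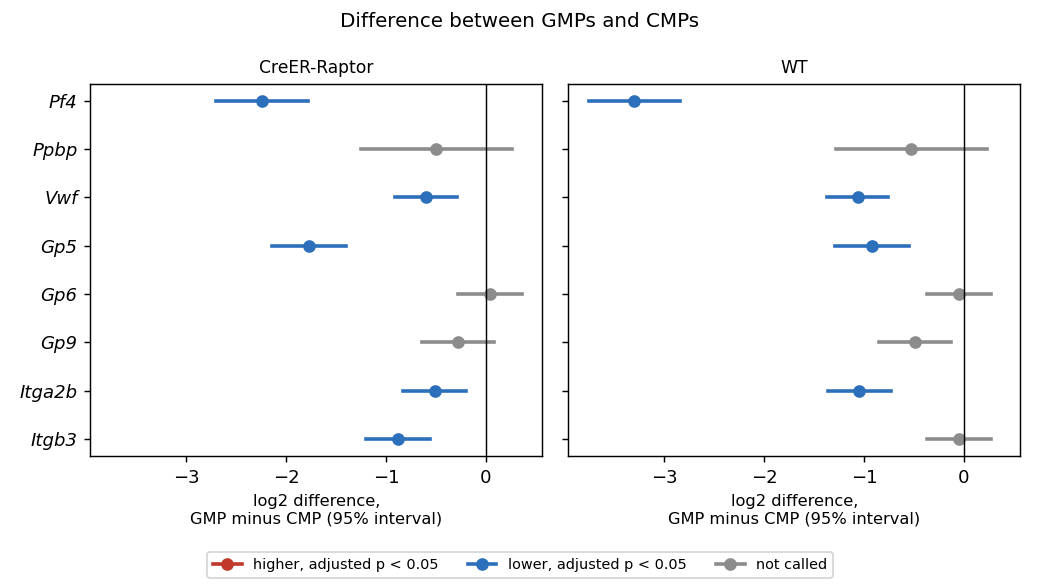
Difference in log2 signal, GMP minus CMP (horizontal axis), for 8 genes in CreER-Raptor cells (left) and WT cells (right); points are limma estimates and lines their 95% intervals, blue where called lower in GMPs. Pf4 is lowest in both genotypes (-2.24 and -3.30), and Itgb3 is called in CreER-Raptor cells (-0.88) and near 0 in WT cells (-0.05).

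Cultured WT Lin- + MCSF cells were compared with the fresh WT progenitors, where culture and population cannot be told apart and most tested genes were called. Against WT CMPs, 5 of 8 members were lower in Lin- + MCSF cells, where 55.6% of all tested genes were called and 36% lower, so the count says little about these genes in particular. Itga2b (-1.32 ± 0.14), Pf4 (-1.23 ± 0.21), Gp9 (-0.93 ± 0.16), Vwf (-0.91 ± 0.14) and Gp5 (-0.59 ± 0.17) were called, with adjusted p from 9.21e-08 to 0.00478. The members' median was -0.75, against -0.14 over all tested genes. Ppbp did not pass at 0.36 (adjusted p = 0.383) but was called higher, at 1.03, without WT CMP replicate 3 (adjusted p = 0.000994). Against WT GMPs, Pf4 was 4.2-fold higher in Lin- + MCSF cells (2.07 ± 0.21, adjusted p = 2.32e-08), where 56.3% of all tested genes were called. Ppbp was called higher (0.89 ± 0.34, adjusted p = 0.031) and Gp9 lower (-0.44 ± 0.16, adjusted p = 0.0242). Arrays overlapped for both genes, and each call was lost without any of several arrays. For Ppbp these were WT Lin- + MCSF replicates 3 and 4 and WT GMP replicates 1 and 2, with differences of 0.68 to 0.93, and for Gp9 they were WT Lin- + MCSF replicates 1 and 3 and WT GMP replicate 3, with differences of -0.39 to -0.32. These WT arrays are also the ones used in the genotype comparisons.

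Other genes of the megakaryocyte programme did not all move with the members. Among 19 tested transcription factors and signalling genes of the lineage, 7 were called higher and 3 lower in CreER-Raptor CMPs, 3 higher and 3 lower in CreER-Raptor GMPs, and 9 higher and 0 lower in CreER-Raptor Lin- + MCSF cells, each against WT. That made 10, 6 and 9 of 19, where 11.4%, 11.9% and 12.5% of all tested genes were called in either direction. None of the 19 had a group mean below the median of all probe sets, and dim genes are part of those shares. With the filter at the 50th percentile, 1958, 2113 and 1950 of 11135 genes were called, a larger share. The median difference of this list was 0.13, 0.16 and 0.28 in the 3 populations, against -0.01, 0.02 and 0.01 over all tested genes. Zfpm1, which encodes the GATA1 cofactor FOG-1, was higher in CMPs (1.04 ± 0.17, adjusted p = 0.000165), GMPs (0.67 ± 0.17, 0.0109) and Lin- + MCSF cells (0.86 ± 0.15, 0.000402). Gfi1b, a repressor needed for red cells and platelets, was higher in CMPs (1.21 ± 0.24, adjusted p = 0.00118) and GMPs (0.84 ± 0.24, 0.0223). Gata1, the master regulator shared with red cells, was higher in CMPs (0.73 ± 0.15, adjusted p = 0.00158), as was Ldb1 (0.48 ± 0.09, 0.00107), which encodes an adaptor of GATA complexes. Gata2, the earlier GATA factor, was higher in GMPs (1.12 ± 0.19, adjusted p = 0.000248), whereas Mef2c, a transcription factor of megakaryocytes and other lineages, was lower there (-0.89 ± 0.16, 0.000744). Nfe2 (-0.39 ± 0.11, adjusted p = 0.0258) and Runx1 (-0.36 ± 0.11, 0.0325) were also called lower in GMPs. The 3 genes called lower in CMPs are not named here, and the lowest difference of the list there was -0.77. In Lin- + MCSF cells the receptor gene Kit (0.99 ± 0.10, adjusted p = 8.28e-07), Meis1 (0.70 ± 0.12, 0.000347) and Tal1 (0.68 ± 0.12, 0.000775), both transcription factor genes of early blood cells, were higher in CreER-Raptor cells.

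Platelet receptors and surface proteins were mixed. Of 20 tested genes, 3 were higher and 3 lower in CreER-Raptor CMPs, 4 higher and 2 lower in CreER-Raptor GMPs, and 6 higher and 1 lower in CreER-Raptor Lin- + MCSF cells. These were 6, 6 and 7 of 20, beside the 11.4%, 11.9% and 12.5% of all tested genes, and the list's median differences were -0.07, 0.13 and 0.14, against -0.01, 0.02 and 0.01 over all tested genes. F2r, the gene of a thrombin receptor, was called higher in all 3 populations, by 1.02 ± 0.17 in CMPs (adjusted p = 0.000199), 0.80 ± 0.17 in GMPs (0.00241) and 0.75 ± 0.15 in Lin- + MCSF cells (0.00144). Selp, the gene of the granule adhesion protein P-selectin, was higher in CMPs (1.17 ± 0.27, adjusted p = 0.00526) and GMPs (1.38 ± 0.27, 0.00129). Fcer1g, whose product carries the signal of glycoprotein VI and of myeloid Fc receptors, was lower in CMPs (-1.01 ± 0.11, adjusted p = 1.68e-06) and GMPs (-1.34 ± 0.11, 3e-08). P2rx1, an ATP receptor gene, was also lower in CMPs (-0.74 ± 0.17, adjusted p = 0.00468) and GMPs (-0.83 ± 0.17, 0.00185). In Lin- + MCSF cells Pear1 (0.65 ± 0.13, adjusted p = 0.00163) and the integrin gene Itga6 (0.55 ± 0.11, 0.00185) were higher, and Cd36, the gene of a scavenger receptor shared with macrophages, was lower (-2.06 ± 0.33, 0.000221).

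Among 27 tested genes of granule, cytoskeleton and signal proteins, 1 was higher and 5 lower in CreER-Raptor CMPs, 2 higher and 2 lower in CreER-Raptor GMPs, and 2 higher and 2 lower in CreER-Raptor Lin- + MCSF cells. The share called in GMPs and in Lin- + MCSF cells, 4 of 27 in each, was near the 11.9% and 12.5% of all tested genes, so these counts say little about the list. In CMPs 6 of 27 were called, where 11.4% of all tested genes were. The list's median differences were -0.20, -0.04 and 0.08, against -0.01, 0.02 and 0.01 over all tested genes. The genes called lower in CMPs included Rasgrp2 (-0.98 ± 0.12, adjusted p = 7.07e-06), which activates the small GTPase behind integrin activation, and Nbeal2 (-1.01 ± 0.17, 0.000183), which is needed for alpha granules. F5, the gene of coagulation factor V, was lower in CMPs (-0.92 ± 0.15, adjusted p = 0.000125) and Lin- + MCSF cells (-0.67 ± 0.13, 0.00115). In GMPs, the granule protein genes Thbs1 (2.64 ± 0.29, adjusted p = 1.5e-06) and Clu (2.11 ± 0.26, 8.23e-06) were higher, and Gng11 was lower (-0.66 ± 0.12, 0.000584). Tbxas1, the gene of thromboxane synthase, was lower in CMPs (-0.71 ± 0.12, adjusted p = 0.000275) and GMPs (-0.44 ± 0.12, 0.0173). F13a1, which encodes a factor XIII chain made by platelets and monocytes, was lower in Lin- + MCSF cells (-0.79 ± 0.12, adjusted p = 9.45e-05), and Rab27b, a granule GTPase gene, was higher (0.57 ± 0.11, 0.00172), as was Ltbp1 (0.34 ± 0.10, 0.0323), which encodes a protein that binds latent TGF-beta. Several genes of these lists are expressed outside the lineage, among them Fcer1g, Cd36, F13a1 and Kit.

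**Figure D4:**
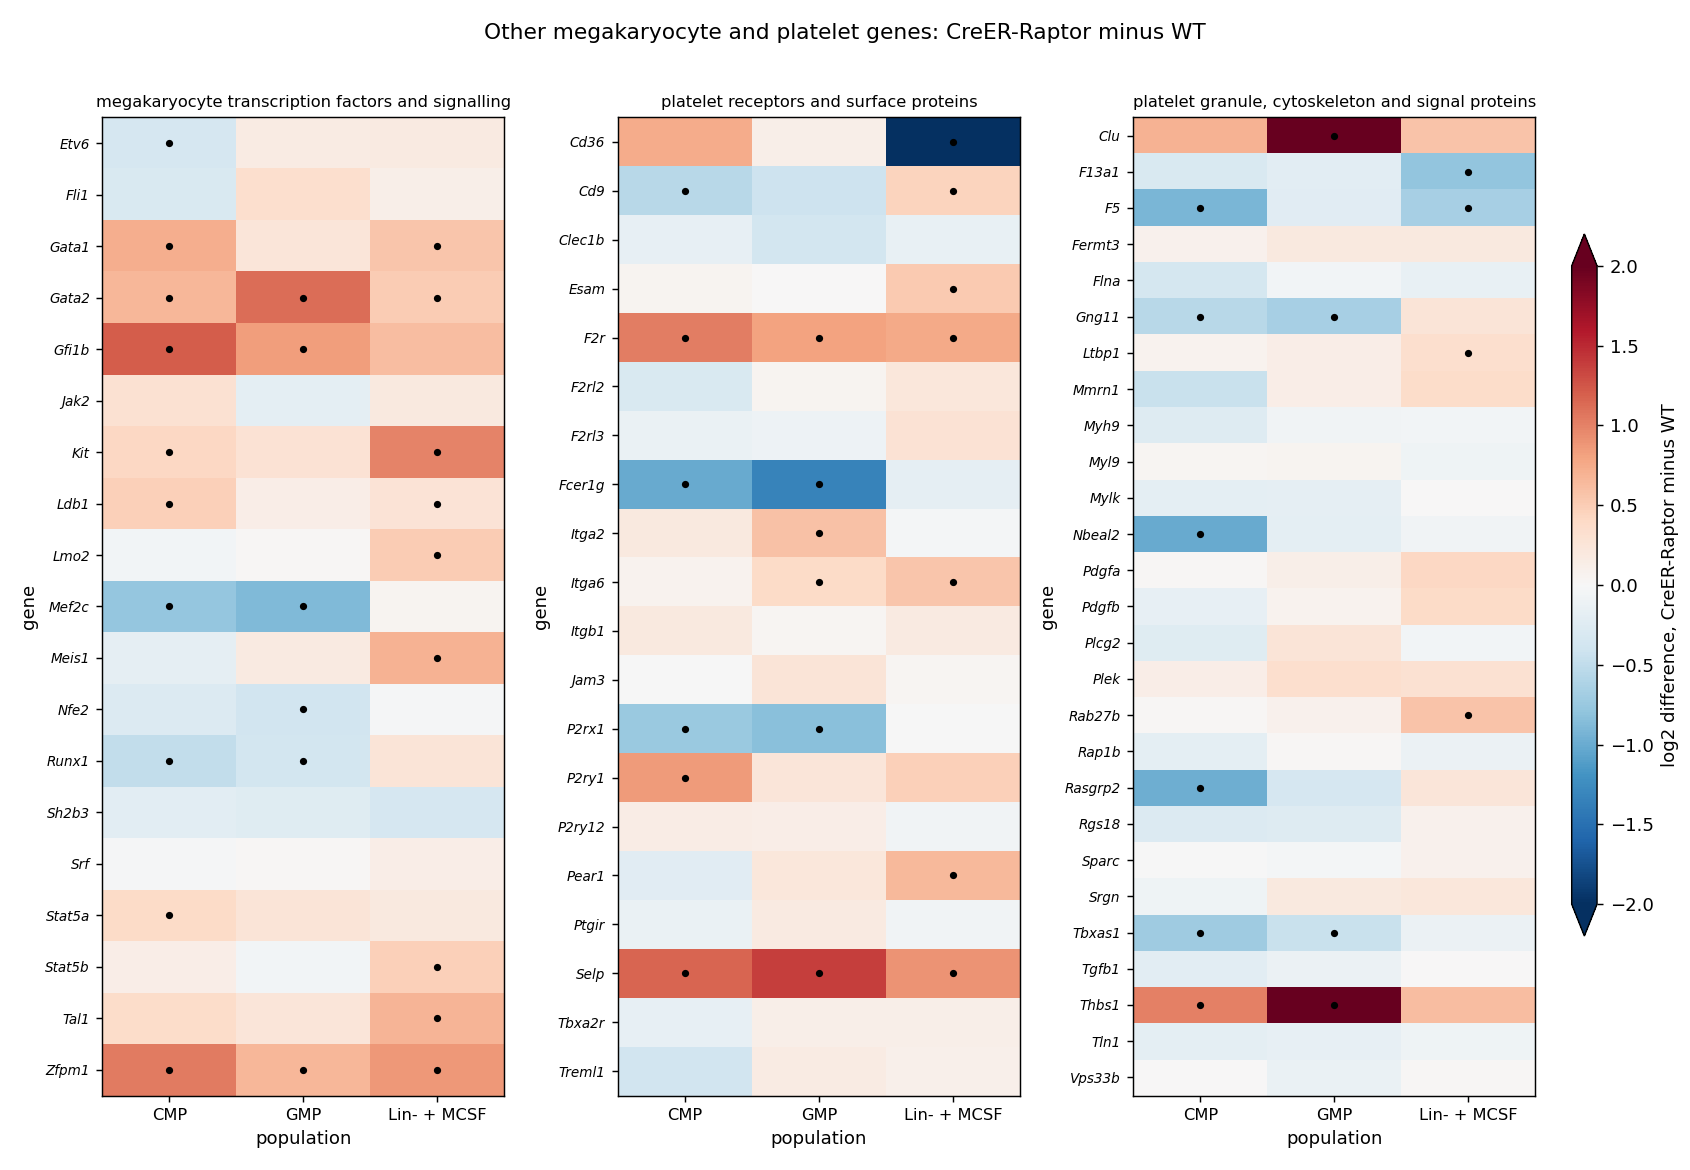
Difference in log2 signal, CreER-Raptor minus WT (colour, red higher and blue lower in CreER-Raptor cells), for the tested genes of 3 other megakaryocyte and platelet lists in CMPs, GMPs and Lin- + MCSF cells; a dot marks a called gene. The colour scale ends at 2 in either direction, which Thbs1 (2.64) and Clu (2.11) in GMPs and Cd36 (-2.06) in Lin- + MCSF cells pass.

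Between WT GMPs and WT CMPs genes of these lists were called in both directions, where 11% of all tested genes were called and 4.35% lower. The median differences were -0.06 for the transcription factors and signalling genes, -0.26 for the receptors and 0.18 for the granule, cytoskeleton and signal genes, against 0.00 over all tested genes. Of the transcription factors and signalling genes, 1 was higher and 5 were lower in GMPs, with Gfi1b (-2.51 ± 0.24, adjusted p = 4.92e-07), Zfpm1 (-1.85 ± 0.17, 2.58e-07), Gata1 (-1.10 ± 0.15, 4.09e-05) and Meis1 (-0.81 ± 0.14, 0.000489) of smallest p. Of the receptors, 1 was higher and 6 were lower, led by F2r (-1.76 ± 0.17, adjusted p = 5.64e-07), Pear1 (-0.77 ± 0.15, 0.00156) and Treml1 (-0.76 ± 0.15, 0.00178), with Fcer1g the higher one (0.58 ± 0.11, 0.00163). Of the granule, cytoskeleton and signal genes, 5 were higher and 5 lower. Mmrn1, which encodes the granule protein multimerin, was lower (-1.02 ± 0.15, adjusted p = 0.000138), and so was Plek (-1.01 ± 0.17, 0.000584), the gene of the platelet protein pleckstrin. Rasgrp2 (0.63 ± 0.12, adjusted p = 0.00173) and F5 (0.72 ± 0.15, 0.00247) were higher in WT GMPs.

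Genes of other cell types moved beside the members, and their part in the results was not tested. Of 11 tested erythroid markers, 10, 5 and 8 were called higher in CreER-Raptor CMPs, GMPs and Lin- + MCSF cells, with 0 called lower and medians of 1.40, 0.67 and 1.03. The shares of all tested genes called, 11.4%, 11.9% and 12.5%, apply to each marker list in these comparisons. The mean of these markers on single arrays was 9.49 to 10.17 in CreER-Raptor CMPs, against 8.25 to 8.54 in WT CMPs, and 5.98 to 6.79 in CreER-Raptor Lin- + MCSF cells, against 5.18 to 5.50 in WT Lin- + MCSF cells. In GMPs it was 5.98 to 7.14 in CreER-Raptor cells, against 5.30 to 5.61 in WT cells. All 11 were called lower in WT GMPs than in WT CMPs, where 11% of all tested genes were called and 4.35% lower. Their median there was -2.82, against 0.00 over all tested genes. Of 11 monocyte and macrophage markers, 6, 7 and 8 were called lower in CreER-Raptor CMPs, GMPs and Lin- + MCSF cells and 1 higher in CMPs, and their mean was 8.06 to 8.17 in CreER-Raptor Lin- + MCSF cells, against 9.12 to 9.31 in WT Lin- + MCSF cells. Of 9 neutrophil markers, 7 were called lower in CreER-Raptor CMPs, and 1 was called higher and 3 lower in CreER-Raptor GMPs. Of 5 mast cell and basophil markers, 1 was called lower in CreER-Raptor CMPs, 2 higher in CreER-Raptor GMPs and 2 lower in CreER-Raptor Lin- + MCSF cells. Of 8 stem and multipotent progenitor markers, 0, 2 and 3 were called higher in the CreER-Raptor groups and 1, 1 and 0 lower. Of the 6 tested endothelial markers, a list that matters for Vwf, 2 were called lower in CreER-Raptor CMPs, 1 lower in CreER-Raptor GMPs and 2 higher in CreER-Raptor Lin- + MCSF cells. The endothelial genes Tek, Stab2 and Emcn lay below the median of all probe sets in every group, and Tek was one of the 2 called higher in Lin- + MCSF cells (0.41 ± 0.13, adjusted p = 0.0399).

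The genes whose values followed each member most closely over the 20 arrays differed between members. The points share the 3 populations and 2 genotypes, so these correlations mostly carry group differences and are given as a description. Closest to Pf4 were Ctla2a (Pearson r = 0.946), Angpt1 (0.945) and Myct1 (0.924). Vwf was closest to Dst (0.897), Muc13 (0.877) and Pear1 (0.876). For Gp5 they were Jmy (0.927), Aldh1a1 (0.917) and the erythroid marker Car2 (0.917), and for Itga2b the erythroid marker Car1 (0.948), Ces2g (0.936) and Spns2 (0.929). Itgb3 was closest to Zfp318 (0.900), Il12rb2 (0.866) and Armc1 (0.866). Gp9 followed Lage3 (0.869), Dennd4c (0.863) and Apoo (0.861), Ppbp followed Xrcc4 (0.804), Oser1 (0.802) and Herpud2 (0.794), and Gp6 reached only 0.668 with Snapc1, 0.649 with Kcnv1 and 0.636 with Brms1.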

How the data were processed

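Total RNA of sorted cells was amplified, labelled with biotin and hybridised to arrays, per the labels' protocols. Values were used as the authors deposited them, as log2 signals from 1.77 to 13.2. RMA, Partek 6.6 and limma appear in the submitters' processing notes, which give neither roles nor order. RMA corrects background, equalises array distributions and summarises probes, so a change shared by most genes is removed. Scanner files and detection calls were not analysed here, so the precision rests on the number of arrays. The platform annotation gave 1 gene symbol to 23521 of 41345 probe sets, several to 1814 and none here to 16010. Where a gene had several probe sets, the one of highest mean over the 20 arrays was kept. Genes below the 25th percentile of mean level (log2 3.86) were left out. One limma fit (version 3.58.1, R 4.3.3; no trend in eBayes) held 6 group means and had 14 residual degrees of freedom. There were 10 comparisons, each adjusted by Benjamini-Hochberg over 16638 genes and called under 0.05. The fit was run on simulated data with independent noise, equal group means and changes added to CreER-Raptor CMPs only. Only the CMP genotype comparison was checked, so the interactions and unequal spread between groups were not tested in this way. Named are all members, up to 4 called genes of smallest p in each of the 3 other megakaryocyte and platelet lists, between genotypes and between WT GMPs and CMPs, and the 3 genes most alike each member. Nfe2 and Runx1 in GMPs are named beyond those 4. The members, lists and motifs were chosen with earlier results of these data known, and the promoters shown were chosen after the motif matches had been seen. As alternatives, the filter was dropped or set at the 50th percentile, a gene's probe sets were averaged, the compared groups were fitted alone, replicate numbers were blocked, eBayes was trended and robust, arrays were weighted, normalization was repeated by quantiles or by median centring, and each array was left out. Figures were drawn with matplotlib 3.10.9.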

Additional observations from a re-analysis of the deposited data

Results flagged for a closer look

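Of 16 groups of 4 arrays examined, 1 held an array far from the others: Gp5 read 6.20 on CreER-Raptor Lin- + MCSF replicate 2, while the other 3 arrays of the group lay between 5.58 and 5.67. Chance alone flags about 1 in 20 such groups. The Gp5 difference between CreER-Raptor and WT Lin- + MCSF cells was 0.90 with this array and 0.75 without it (limma adjusted p = 0.00192).

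For 3 members the genotype difference itself differed between populations in the interaction test. Culture with M-CSF and population cannot be told apart where Lin- + MCSF cells take part. The Pf4 difference was 0.95 in Lin- + MCSF cells and -0.65 in CMPs, an interaction of 1.60, and the Vwf difference was 0.80 in Lin- + MCSF cells and -0.11 in CMPs, an interaction of 0.91. The Itgb3 difference was 0.62 in Lin- + MCSF cells and -0.51 in GMPs, an interaction of 1.13. It was -0.51 in GMPs and 0.32 in CMPs, an interaction of -0.83 that lost its call under 14 of 21 alternatives, 11 of them single arrays left out. Over all alternatives its adjusted p ranged from 0.00145 to 0.14.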

How the results depend on the processing

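Of 80 member changes (8 genes in 10 comparisons), 29 were called, and 23 of these stayed called under all of the 9 alternatives and the left-out arrays that apply to them. The 6 that lost the call under at least 1 alternative were Itgb3 between GMP genotypes and in the interaction of GMPs with CMPs, Itga2b between Lin- + MCSF genotypes and between CreER-Raptor GMPs and CMPs, and Ppbp and Gp9 between WT Lin- + MCSF cells and GMPs. Among the 51 uncalled changes, 13 passed under at least 1 alternative. No called change turned its sign; 27 values of 16 uncalled results did, none larger than 0.64. Members called between CMP genotypes numbered 1, but 2 with the 50th percentile filter, with CMP arrays alone, with the replicate block and with array weights, where Pf4 joined Gp5. Between GMP genotypes there were 2, but 1 with GMP arrays alone and with repeated quantile normalization, and 3 with array weights, where Vwf joined. Between WT Lin- + MCSF cells and GMPs there were 3, but 5 with array weights, and as few as 2 under other alternatives. Between Lin- + MCSF genotypes there were 5, with 4 to 5 under these alternatives. Between GMPs and CMPs the number was 4 in WT cells, with 4 to 5, and 5 in CreER-Raptor cells, with 5 to 6. In the interaction of GMPs with CMPs there was 1, but 0 without a filter and with repeated quantile normalization, 2 with the compared groups alone and 4 with array weights. In that of Lin- + MCSF cells with GMPs there was 1, but 2 with array weights. With 1 array left out, the counts ranged from 1 to 2 between CMP genotypes, from 1 to 2 between GMP genotypes, from 0 to 2 in the interaction of GMPs with CMPs and from 1 to 2 in that of Lin- + MCSF cells with GMPs. They ranged from 4 to 5 between CreER-Raptor GMPs and CMPs. For WT Lin- + MCSF cells they ranged from 2 to 4 against GMPs and from 5 to 6 against CMPs. The 50th percentile filter left Ppbp and Gp6 untested. Each member had 1 probe set, so averaging probe sets left its values unchanged and could move only its SE and adjusted p. Array weights moved the number of all genes called to 3048 against 1905 between CMP genotypes, 5328 against 1980 between GMP genotypes, 1316 against 2088 between Lin- + MCSF genotypes, 3995 against 1831 between WT GMPs and CMPs, 7123 against 4639 between CreER-Raptor GMPs and CMPs, and, in interactions, 1980 against 416 for GMPs with CMPs and 1330 against 793 for Lin- + MCSF cells with GMPs. Fitting the compared groups alone gave 899 between Lin- + MCSF genotypes, 2852 between WT GMPs and CMPs and 654 in the interaction of GMPs with CMPs. Single arrays also moved these numbers by over 1.5 times. Between CMP genotypes 1229 genes were called without CreER-Raptor CMP replicate 2, and between GMP genotypes 1183 without WT GMP replicate 2 and 1256 without CreER-Raptor GMP replicate 2. Between WT GMPs and CMPs there were 803 without WT GMP replicate 3, 1011 without WT CMP replicate 2, 1136 without WT GMP replicate 1 and 1139 without WT CMP replicate 1. In the interaction of GMPs with CMPs there were 647 without CreER-Raptor CMP replicate 3, 276 without WT GMP replicate 1, 265 without WT CMP replicate 3, 245 without WT GMP replicate 2 and 228 without CreER-Raptor CMP replicate 2, and in that of Lin- + MCSF cells with GMPs 488 without WT GMP replicate 2. The shares of all tested genes given beside the members move with these numbers. Replicate numbers are shared between groups, but the labels do not say that they mark pairs. Between genotypes, the deviations of same-numbered arrays correlated at -0.171 to 0.119 in CMPs and -0.344 to -0.032 in GMPs. In Lin- + MCSF cells they correlated at -0.085 to 0.056. Between GMPs and CMPs, the deviations of same-numbered arrays correlated at 0.048 to 0.185 in CreER-Raptor cells and 0.005 to 0.087 in WT cells. For arrays of different numbers these values were -0.170 to 0.045 and -0.150 to 0.077. The main fit did not take the numbers as pairs. Whether CMPs and GMPs of a number shared a source was not tested. The replicate block moved Pf4 past the threshold between CMP genotypes (adjusted p = 0.0238) and in the interaction of GMPs with CMPs (0.0332), and Itgb3 out of it in that interaction (0.0577).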
